A study of Mus musculus with 58 samples.

Results

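The members described here are the solute carrier genes of the sugar, amino acid and peptide transporter families Slc1, Slc2, Slc5, Slc6, Slc7, Slc15, Slc36 and Slc38. The rule uses the symbol alone and no measured value; the families and the role lists below were drawn up with earlier results of these data known. The members come from the bulk RNA libraries of mouse small-intestinal organoids. The rule found 76 genes among the 20095 genes listed in those libraries, and 75 of the 76 had at least 1 count. Members were 6 of Slc1, 12 of Slc2, 10 of Slc5, 15 of Slc6, 15 of Slc7, 4 of Slc15, 3 of Slc36 and 11 of Slc38. After genes with low counts were set aside, 39 of the 76 could be tested in at least 1 set of libraries. The other 37 were never tested and stayed at or below a group mean of 31.5 counts per 1000000 (CPM).

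Organoids are small pieces of intestinal epithelium that grow in culture with stem cells, absorptive cells and secretory cells. All came from the small intestine of Bl/6 mice. The study used the standard medium, here ENR, which is named for the growth factor EGF, the BMP inhibitor Noggin and the Wnt agonist R-spondin, and it added inhibitors to ask which signals keep stem cells cycling and which ones open the enteroendocrine fate. At 6 h and at 96 h there were 3 libraries each of organoids without inhibitor (ENR), with EGFR inhibition (Ei), with Mek inhibition (Mi), with Wnt and Notch inhibition (ID), with Wnt, Notch and EGFR inhibition (IDE) and with Wnt, Notch and Mek inhibition (IDM). The labels do not name the compounds or their doses. A sorted set had 2 libraries a group: Lgr5+ cells of the Lgr5-GFP and of the Lgr5-DTR mouse line, each in ENR and under EGF inhibition, Dclk1+ cells of the Dclk1-GFP line in ENR and under EGF inhibition, and whole organoids in ENR. Lgr5 is a stem cell gene and Dclk1 a tuft cell gene. The labels do not describe these alleles further and give no time of inhibition before the sort. Nothing in the labels says that the libraries of a group came from separate animals or cultures, so the p-values below measure the spread between these libraries, which may be technical.

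Intestinal absorption of sugars, amino acids and peptides works in pairs of membranes. Apical carriers at the brush border take nutrients from the lumen, with the sodium gradient (Slc5a1 for glucose, Slc6a19 for neutral amino acids), with protons (Slc15a1 for short peptides), by exchange (Slc7a9) or by facilitated diffusion (Slc2a5 for fructose), and basolateral carriers (Slc2a2, Slc7a7, Slc7a8) pass them to the blood. Dividing cells of most tissues use another group of carriers to feed growth, among them the glucose transporter Slc2a1, the glutamine transporters Slc1a5 and Slc38a1, the cationic amino acid transporter Slc7a1, the large neutral amino acid exchanger Slc7a5 and the cystine importer Slc7a11. The results are ordered by these roles: 9 apical absorptive members, 3 basolateral ones and 13 of growth supply.

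Slc7a11 and Slc1a4 fell with EGFR or Mek inhibition, and Slc5a1 rose with Wnt and Notch inhibition. The promoters of these 3 members are shown as examples, and each holds a match to a motif searched. Each is 300 bases from RefSeq (GRCm38.p6), 5′ to 3′ in the direction of the gene, from 250 bases before the annotated start to 50 after it. Capitals mark matches on either strand to TGATGNAA, the core of amino acid response elements (Slc7a11 and Slc1a4), or to CACGTG, the E-box (Slc5a1). The Slc7a11 promoter lies at chr3:50443564-50443863 on the minus strand, that of Slc1a4 at chr11:20332664-20332963 on the minus strand, and that of Slc5a1 at chr5:33103969-33104268 on the plus strand.
Slc7a11: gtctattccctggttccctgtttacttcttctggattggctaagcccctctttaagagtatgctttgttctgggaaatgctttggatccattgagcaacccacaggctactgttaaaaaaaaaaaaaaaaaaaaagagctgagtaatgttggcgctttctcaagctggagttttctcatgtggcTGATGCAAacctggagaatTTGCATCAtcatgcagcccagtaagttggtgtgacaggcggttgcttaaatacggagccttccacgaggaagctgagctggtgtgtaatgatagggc
Slc1a4: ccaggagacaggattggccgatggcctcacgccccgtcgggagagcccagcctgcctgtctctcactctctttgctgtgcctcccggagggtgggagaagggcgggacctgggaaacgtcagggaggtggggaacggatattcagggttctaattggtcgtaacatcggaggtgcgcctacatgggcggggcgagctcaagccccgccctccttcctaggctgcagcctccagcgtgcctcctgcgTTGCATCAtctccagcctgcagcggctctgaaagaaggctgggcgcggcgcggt
Slc5a1: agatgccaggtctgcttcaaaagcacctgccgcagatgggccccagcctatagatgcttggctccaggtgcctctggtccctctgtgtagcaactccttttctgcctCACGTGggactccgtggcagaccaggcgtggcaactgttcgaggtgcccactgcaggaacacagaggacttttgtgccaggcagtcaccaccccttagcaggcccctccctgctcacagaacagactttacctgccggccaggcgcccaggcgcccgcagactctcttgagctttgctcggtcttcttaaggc
The element occurred at positions −66 and −47 from the Slc7a11 start and at −4 from the Slc1a4 start, and the E-box at −143 from the Slc5a1 start. A RefSeq promoter was found for 55 of the 76 members. These 55 have 73 promoter windows, since some genes have several starts. TGATGNAA matched in 4 of the 73 windows (of Slc7a11, Slc1a4 and Slc7a7), against 3.97% of 32851 single mouse promoter windows of the same length. The matching windows of Slc7a7 overlap and share a match, so the windows are not all independent. The windows of Slc2a1 and Slc7a1, which also fell with EGFR or Mek inhibition at 6 h, held no such match. Slc7a7 was called with neither inhibitor at 6 h or 96 h. CACGTG matched in 7 of the 73, against 7.15%, and the AP-1 letters TGANTCA in 8, against 7.81%. GTTAATNAT, searched for HNF1, and CAAAGTCCA, searched for HNF4, matched in 0 windows, against 0.801% and 0.475%. The matches overlapped no other motif searched in these 3 windows, and a match describes letters only.

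CEL-seq counts the 3′ ends of transcripts, so levels are given per gene as CPM and are compared between libraries, not between genes. The 6 h libraries held between 448292 and 2763423 counts, the 96 h libraries between 158135 and 1738425, and the sorted libraries between 668893 and 3599554. The lowest total belonged to replicate 2 of the Ei group at 96 h, where 1 count equals 6.197 CPM, so low members cannot be resolved there. A member is called higher or lower where edgeR's quasi-likelihood test gave a Benjamini-Hochberg adjusted p under 0.05 over all genes of that set. Log2 changes are given with their standard error (SE). The 96 h groups ENR, Ei and Mi carry 1 library set number in the labels and ID, IDE and IDM carry another, as they do at 6 h, so the effect of Wnt and Notch inhibition and any difference between those sets cannot be told apart. In bulk RNA, fewer cells of a type and less RNA per cell cannot be told apart either. The title of the whole organoids in the sorted set names no mouse line, and the Lgr5+ and Dclk1+ cells came from different lines. Cell type there cannot be told apart from line or, against whole organoids, from the sort itself. In the sorted set, replicate 2 of the Dclk1+ ENR group stood apart from replicate 1 in secretory markers: Defa24, a Paneth cell defensin, was at 1906 CPM against 153 CPM, and Tff3 of goblet cells at 731 CPM against 112 CPM.

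After 96 h of Wnt and Notch inhibition the absorptive carriers were higher and several growth carriers were lower. In ID against ENR, 11 of the 29 members tested rose, where 19.7% of all genes did, and 6 fell, where 18.3% of all genes did. Of 8 apical members tested, 6 rose and 1 fell, with a median log2 change of 2.45, and of 3 basolateral members 2 rose, with a median of 1.81. The median over all members was 0.64, and over all 8135 genes −0.02. Of 8 growth supply members none rose and 3 fell, with a median of −0.23.

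Slc5a1, the sodium-coupled glucose transporter SGLT1, was at 296, 262 and 261 CPM in the ENR libraries and at 1576, 1471 and 2069 CPM in the ID libraries. All ID libraries lay far above all ENR libraries, and the log2 change was 2.65 (SE 0.20, adjusted p = 3.67e-12). The basolateral hexose carrier Slc2a2 (GLUT2) moved in step, from 20.6, 23.9 and 24.8 CPM to 117, 141 and 216.5 CPM, a log2 change of 2.77 (SE 0.24, adjusted p = 1.46e-10). The fructose carrier Slc2a5 (GLUT5) was at 13.5, 6.33 and 3.46 CPM in ENR and at 17.9, 23.0 and 65.9 CPM in ID. Its groups did not overlap, but the highest value was 1 library: the log2 change of 2.26 (SE 0.54, adjusted p = 0.00127) became 1.37 (adjusted p = 0.122) without ID replicate 3.

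The peptide transporter Slc15a1 (PEPT1) was close to absent in ENR, at 4.98, 2.81 and 1.15 CPM, and reached 52.05, 65.7 and 92.3 CPM in ID. This was the largest called rise of the members in this comparison, with a log2 change of 4.53 (SE 0.43, adjusted p = 7.17e-10), on 13 counts in ENR and 98 in ID. The apical neutral amino acid transporter Slc6a19 (B0AT1) went from 4.27, 6.33 and 4.62 CPM to 21.5, 32.8 and 49.0 CPM, a log2 change of 2.73 (SE 0.43, adjusted p = 6.88e-06). An antisense transcript, Slc6a19os, overlaps this gene and the strand of counting is not stated, so reads of the pair may be mixed. Other named members also overlap genes on the opposite strand, among them Slc2a2, Slc5a1, Slc7a7, Slc7a11, Slc15a4, Slc7a4 and Slc38a9. Slc7a9, the light chain of the apical cystine and dibasic amino acid exchanger, was at 11.4, 14.8 and 14.4 CPM in ENR and at 69.99, 85.4 and 124 CPM in ID (log2 change 2.77, SE 0.28, adjusted p = 2.64e-09). Both amino acid carriers were higher in every ID library than in any ENR library.

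On the basolateral side Slc7a7, the light chain of the y+LAT1 exchanger for cationic amino acids, went from 6.40, 4.92 and 6.35 CPM to 21.5, 13.1 and 26.4 CPM (log2 change 1.81, SE 0.42, adjusted p = 0.000928). The basolateral exchanger of neutral amino acids Slc7a8 (LAT2) did not pass the test: its ID libraries, at 21.5, 6.57 and 28.3 CPM, overlapped the ENR libraries at 9.25, 12.7 and 9.81 CPM (log2 change 0.95, SE 0.42, adjusted p = 0.0767). Among members outside the absorptive lists, the creatine transporter Slc6a8 rose from a mean of 14.4 ± 1.98 to 64.1 ± 16.9 CPM (SD, n = 3; log2 change 2.14, adjusted p = 5.52e-06). Slc38a6, a member of the SNAT family, rose from 28.5 ± 11.9 to 95.3 ± 10.03 CPM (SD, n = 3; log2 change 1.76, adjusted p = 3.41e-05). The urate and hexose carrier Slc2a9 (log2 change 1.15, adjusted p = 0.0427) and Slc5a9, a mannose and glucose carrier that is 1 of the 6 apical members counted as higher (0.93, adjusted p = 0.0419), were called but fragile. Slc2a9 lost its call in 5 of 6 fits that each left out 1 library, with adjusted p from 0.0569 to 0.324, and kept it without ID replicate 2. Slc5a9 lost it in all 6, with adjusted p from 0.0597 to 0.116. DESeq2 (0.103 and 0.08) and dropping the filter (0.105 and 0.128) ended both calls.

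**Figure D1:**
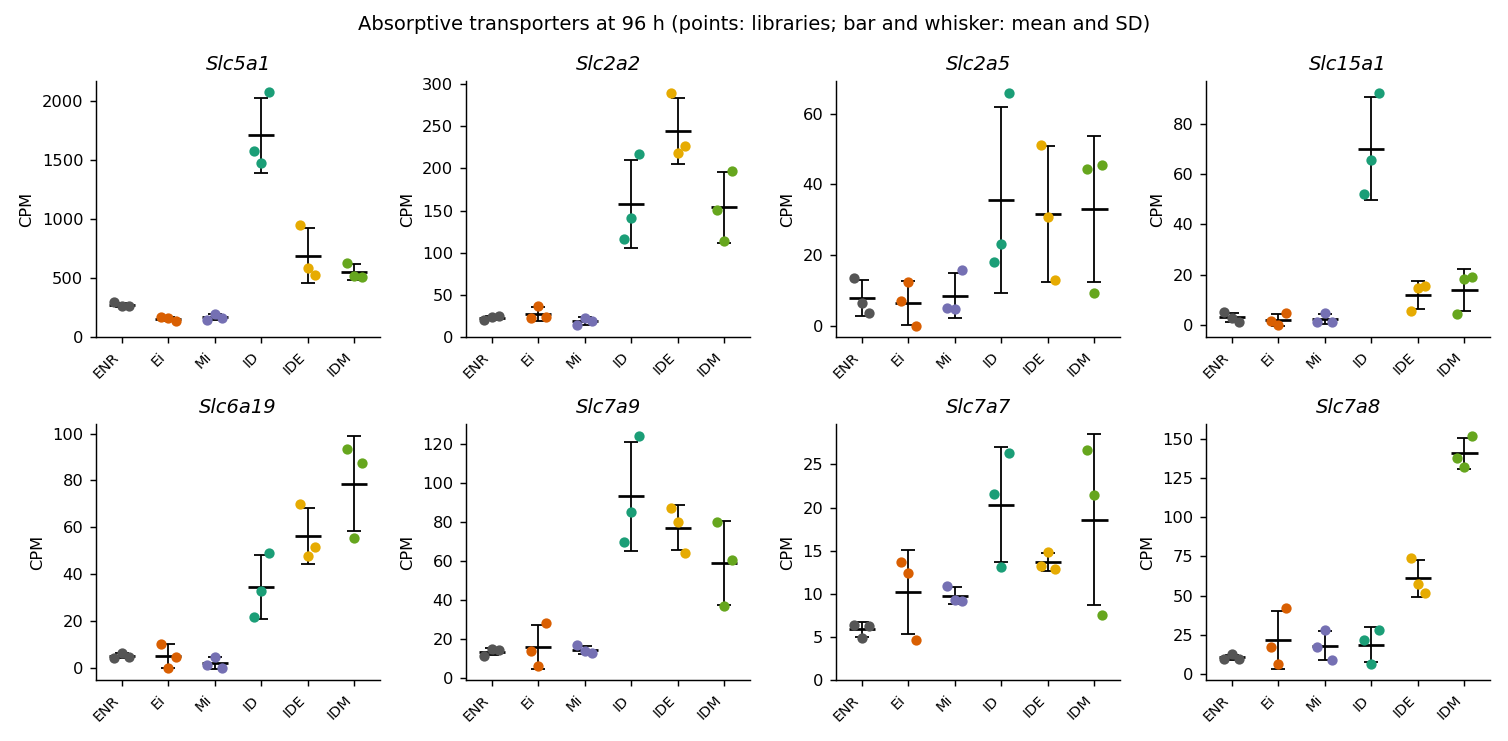
Levels of 8 absorptive transporters in the 96 h organoid libraries, in CPM on an axis scaled for each gene; points are single libraries and bars and whiskers the group mean and SD (n = 3 each). Slc5a1, Slc2a2, Slc15a1, Slc6a19 and Slc7a9 lie higher in all ID libraries than in all ENR libraries, and Slc5a1 and Slc15a1 lie lower again in IDE and IDM.

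Of the 6 members that fell in ID at 96 h, 4 carry amino acids across the plasma membrane and the other two are lysosomal. Slc1a1, which takes up glutamate and aspartate and is counted here among the apical carriers, went from 21.3, 25.3 and 19.0 CPM to 3.59, 6.57 and 0 CPM, a log2 change of −2.84 (SE 0.61, adjusted p = 0.000473) that went against the other apical members. Slc1a4, an alanine, serine and cysteine exchanger, was at 90.3, 95.6 and 95.8 CPM in ENR and at 35.9, 42.7 and 43.3 CPM in ID (log2 change −1.22, SE 0.25, adjusted p = 0.000207). The cationic carrier Slc7a1 was at 272, 301 and 280 CPM in ENR and at 122, 135 and 158 CPM in ID, and its level fell by 1.04 on the log2 scale (SE 0.18, adjusted p = 3.41e-05). The ranges of the groups did not touch for any of these genes. The glutamine exchanger Slc1a5 also fell, from 135 ± 21.5 to 64.0 ± 36.3 CPM (SD, n = 3; log2 change −1.02, adjusted p = 0.00285). The lysosomal carriers Slc15a4 and Slc38a9 were lower with less stable calls. Without ID replicate 3 the adjusted p of Slc15a4 (0.0215) became 0.213, and leaving out ENR replicate 1 or 2 gave 0.063 or 0.0743. That of Slc38a9 (0.0141) became 0.0663 without ID replicate 2 and 0.0674 without ID replicate 3. Under DESeq2 they were 0.0822 and 0.0541. Slc2a1 (log2 change 0.06, SE 0.32, adjusted p = 0.906), Slc38a1 (0.20, SE 0.22, adjusted p = 0.5), Slc7a11 (−0.16, SE 0.20, adjusted p = 0.566) and Slc38a2 (−0.29, SE 0.23, adjusted p = 0.341) did not pass. Of 13 amino acid response genes tested 7 fell and none rose, with the serine synthesis enzyme Psat1 at a log2 change of −2.04 (adjusted p = 1.7e-08).

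The change in absorptive carriers went with markers of several cell types. All 8 enterocyte markers had counts, and their summed level was 2040 to 2160 CPM in the ENR libraries and 12800 to 18200 CPM in the ID libraries. The summed level of the 6 goblet markers went from 1170–1520 to 22400–40900 CPM and that of the 6 enteroendocrine markers from 268–379 to 2410–4000 CPM. The stem marker sum fell from 1380–1470 to 374–494 CPM, with Olfm4 at 0 in every ID library. The part of these shifts in the transporter changes was not tested. Partner proteins and luminal enzymes moved with the carriers. Of 5 partner genes tested 4 rose, among them the scaffold gene Pdzk1 (log2 change 4.37, SE 0.59, adjusted p = 9.74e-07) and Slc3a2, the heavy chain of the Slc7a7 and Slc7a8 exchangers (0.75, adjusted p = 0.00147). Slc3a1, the heavy chain of Slc7a9, was not tested in any set. Of 10 enzymes of luminal digestion 9 rose, with a median log2 change of 2.18. Those with the smallest adjusted p were sucrase-isomaltase Sis (2.24, adjusted p = 1.47e-10), the protease Mep1b (3.02, adjusted p = 8.07e-10), aminopeptidase N Anpep (2.66, adjusted p = 4.61e-08) and maltase-glucoamylase Mgam (1.63, adjusted p = 9.8e-08).

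At 6 h of Wnt and Notch inhibition these shifts were not seen. None of the 32 members tested was called by edgeR in ID against ENR, and 2 were below an unadjusted p of 0.05; 0.0746% of all genes were called higher and 0.149% lower. DESeq2 also called 0 members, and 1 member was called when the filter on low counts was dropped. Slc5a1 was at 343, 328 and 262 CPM in ENR and at 298, 316 and 303 CPM in ID, and its groups overlapped (log2 change −0.02, SE 0.15, adjusted p = 0.985). Slc15a1 was at 5.71, 10.03 and 3.64 CPM in ENR and at 6.71, 4.82 and 5.17 CPM in ID. The summed enterocyte markers were at 3190–4240 CPM in ENR and 3650–4360 CPM in ID at this time. The change from 6 h to 96 h was not tested, since the sets were fitted apart.

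EGFR and Mek inhibition lowered the growth supply carriers within 6 h. In Ei against ENR, 3 of 32 members rose and 10 fell, where 13.3% of all genes rose and 14.9% fell. Mi against ENR gave 3 higher and 8 lower, against 10.2% and 12.9% of all genes. In Wnt- and Notch-inhibited organoids IDE against ID gave 3 higher and 7 lower, against 9.97% and 12.5%, and IDM against ID gave 3 higher and 6 lower, against 9.71% and 10.9%. Of the 10 growth supply members tested, 7 fell in Ei, 6 in Mi, 7 in IDE and 6 in IDM, and none rose. Their median log2 changes were −1.04, −1.08, −0.80 and −0.94, beside medians over all genes between 0.01 and 0.03. Ei and Mi share the ENR libraries as control, and IDE and IDM share the ID libraries.

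Slc2a1, the glucose transporter GLUT1, was at 48.9, 34.6 and 37.1 CPM in the 6 h ENR libraries, at 8.40, 10.6 and 5.87 CPM in Ei and at 11.2, 9.70 and 9.21 CPM in Mi. Every inhibited library was well below every control library. The log2 change was −2.22 (SE 0.33, adjusted p = 2.85e-06) for Ei and −1.99 (SE 0.32, adjusted p = 1.3e-05) for Mi. In ID organoids it went from 51.5, 53.7 and 37.7 CPM to 14.2, 13.1 and 12.8 CPM in IDE (log2 change −1.82, SE 0.29, adjusted p = 8.31e-06) and to 8.57, 19.4 and 3.95 CPM in IDM (−2.14, SE 0.31, adjusted p = 2.41e-06). The groups again did not overlap. An antisense transcript overlaps Slc2a1 too.

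The glutamine and alanine transporter Slc38a1 was at 186, 185 and 156 CPM in ENR, at 57.6, 57.7 and 52.8 CPM in Ei and at 88.1, 71.4 and 83.8 CPM in Mi. These are log2 changes of −1.64 (SE 0.15, adjusted p = 1.5e-10) and −1.11 (SE 0.14, adjusted p = 3.06e-07), with no overlap. In ID organoids, at 152, 141 and 124 CPM, it was −0.97 in IDE (SE 0.15, adjusted p = 4.49e-06) and −0.93 in IDM (SE 0.15, adjusted p = 1.4e-05). Slc7a1 was at 370, 304 and 356 CPM in ENR and between 138 and 193 CPM in all 6 Ei and Mi libraries. Its log2 changes of −1.02 (Ei, adjusted p = 7.75e-07), −1.02 (Mi, adjusted p = 8.89e-07), −0.96 (IDE, adjusted p = 2.44e-06) and −0.95 (IDM, adjusted p = 4.46e-06) were close to one another.

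Slc1a4 was at 44.0, 51.0 and 58.3 CPM in ENR, at 28.8, 27.9 and 23.5 CPM in Ei and at 25.9, 11.5 and 16.6 CPM in Mi. It fell by 0.94 in Ei (SE 0.25, adjusted p = 0.00422) and by 1.501 in Mi (SE 0.26, adjusted p = 4.77e-05) on the log2 scale. In ID organoids it fell by 1.79 with EGFR inhibition (SE 0.26, adjusted p = 1.71e-06) and by 2.73 with Mek inhibition (SE 0.30, adjusted p = 1.29e-08), where the IDM libraries were at 10.5, 9.34 and 5.26 CPM. The cystine importer Slc7a11 was at 181, 90.2 and 140 CPM in ENR, at 51.6, 63.7 and 54.7 CPM in Ei and at 49.2, 40.6 and 54.3 CPM in Mi, with log2 changes of −1.26 (SE 0.20, adjusted p = 1.04e-05) and −1.52 (SE 0.21, adjusted p = 8.79e-07). In IDM it was at 44.8, 61.8 and 60.5 CPM against 114, 178 and 163 CPM in ID (−1.48, SE 0.20, adjusted p = 8.74e-07). In IDE, at 101, 123 and 83.7 CPM, it overlapped ID, and its call (−0.63, adjusted p = 0.0127) was lost without IDE replicate 3 (0.117), ID replicate 2 (0.108) or ID replicate 3 (0.0529).

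Slc7a5, the leucine carrier LAT1, was at 13.0, 15.5 and 12.4 CPM in ENR against 1.20, 3.98 and 6.84 CPM in Ei. Its level fell by 1.69 in Ei (SE 0.50, adjusted p = 0.0106, or 0.0517 without Ei replicate 1), by 2.11 in IDE (SE 0.49, adjusted p = 0.00145) and by 2.32 in IDM (SE 0.53, adjusted p = 0.00143) on the log2 scale. In Mi, where 1 library was at 11.97 CPM, it did not pass (log2 change −1.04, SE 0.46, adjusted p = 0.0956). The gene overlaps Gm20388. Slc7a6, the y+LAT2 light chain, was called lower in Ei (−1.07, adjusted p = 0.0445) and Mi (−1.37, adjusted p = 0.0156), with groups that overlapped. DESeq2 ended both calls of Slc7a6 (0.154 and 0.0754), and dropping the filter (0.058) ended that in Ei. Slc7a6 lost the Ei call without ENR replicate 1 or 3 or any of the Ei replicates, with adjusted p from 0.0514 to 0.229, and the Mi call without ENR replicate 3, Mi replicate 1 or Mi replicate 2, with adjusted p from 0.0716 to 0.114. Slc1a5 was called in IDE (−0.57, adjusted p = 0.0276), a call lost without IDE replicate 3 (0.21), ID replicate 1 (0.0799) or ID replicate 3 (0.0725), while the 6 h values in Ei (−0.20, adjusted p = 0.443), Mi (−0.35, adjusted p = 0.181) and IDM (−0.49, adjusted p = 0.0662) did not pass, although IDM passed without the filter (0.042) or with only the groups compared (0.0449). Slc38a2, the SNAT2 carrier, passed in no comparison of any set.

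Other losses lay outside the growth list. The myo-inositol carrier Slc5a3, whose gene lies inside Mrps6 on the same strand, went from 14.7 ± 3.30 CPM in ENR to 6.06 ± 1.21 in Ei and 6.87 ± 3.83 in Mi (SD, n = 3). Its Ei call (log2 change −1.24, adjusted p = 0.0134) was lost without ENR replicate 1 (0.0532) or Ei replicate 3 (0.0569), and its Mi call (−1.11, adjusted p = 0.0284) without ENR replicate 1, ENR replicate 3, Mi replicate 1 or Mi replicate 2 (0.0892 to 0.168). The taurine transporter Slc6a6 fell by 0.55 on the log2 scale in Ei (SE 0.15, adjusted p = 0.00449), from 537 ± 53.2 to 363 ± 87.5 CPM (SD, n = 3). Slc7a14 (−0.45, adjusted p = 0.0365) in Ei was lost without ENR replicate 1 or 2 or Ei replicate 1 or 2, with adjusted p from 0.0597 to 0.162, and Slc15a4 (−0.65, adjusted p = 0.032) in Mi without ENR replicate 1 or 3 or Mi replicate 1 or 2, with adjusted p from 0.0818 to 0.108. DESeq2 ended the calls of Slc5a3 (0.0544 in Ei, 0.111 in Mi), Slc7a14 (0.0568) and Slc15a4 (0.103), and that of Slc7a14 was also lost with only the groups compared (0.056). The count of 11 calls in Mi became 6 without Mi replicate 1 and 7 without ENR replicate 3, and that of 10 in IDE became 6 without ID replicate 3.

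**Figure D2:**
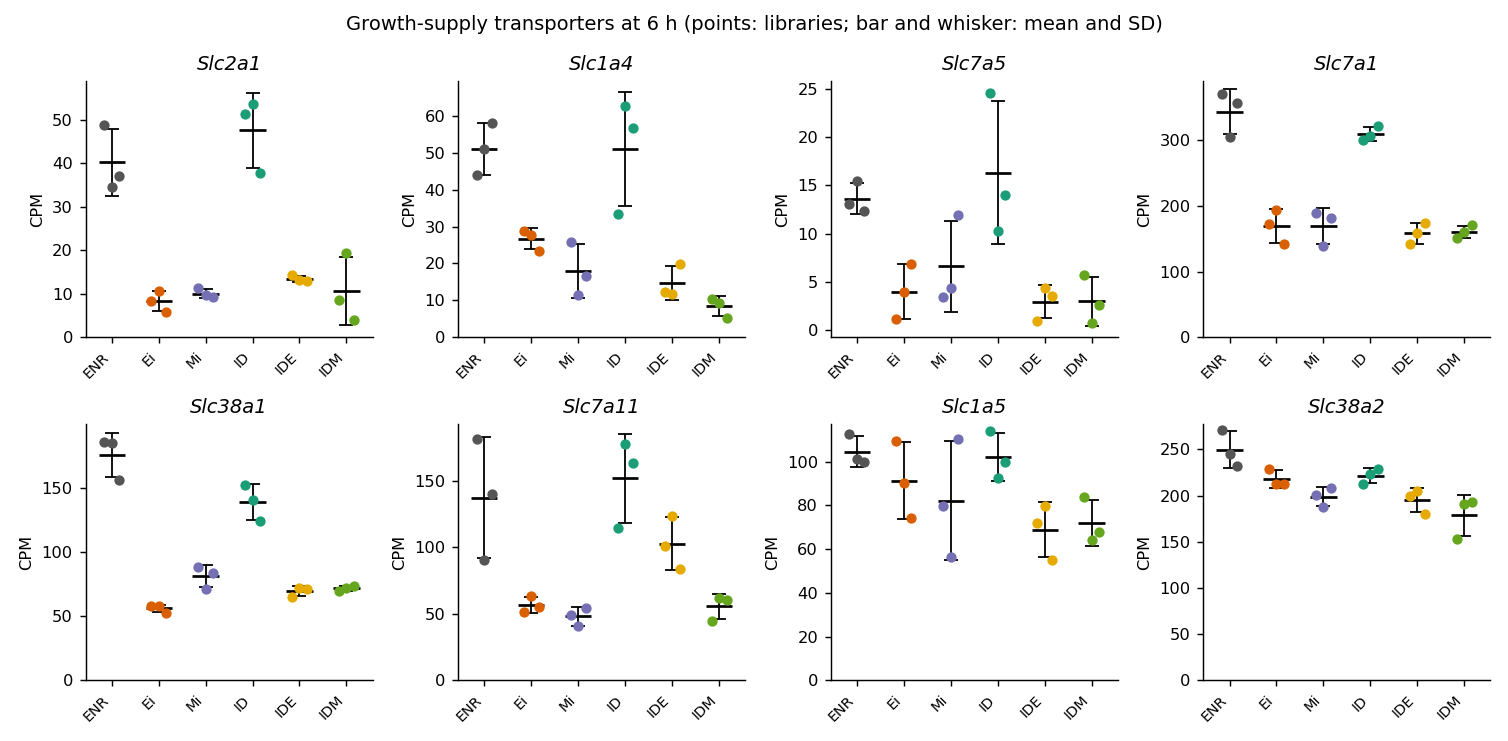
Levels of 8 growth supply carriers in the 6 h libraries, in CPM on an axis scaled for each gene; points are single libraries and bars and whiskers the group mean and SD (n = 3 each). Slc2a1, Slc1a4, Slc7a1 and Slc38a1 lie lower in all Ei and Mi libraries than in all ENR libraries and lower in all IDE and IDM libraries than in all ID libraries, while Slc38a2 passed in no comparison.

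The 3 members that rose in each EGFR or Mek inhibitor comparison at 6 h did not exceed the share of all genes. Among them, only Slc5a9 kept its call in every fit that left out 1 library. Slc5a9 (SGLT4) was at 7.34, 10.9 and 6.55 CPM in ENR, at 18, 21.9 and 19.6 CPM in Ei and at 15.6, 19.4 and 23.9 CPM in Mi. The log2 changes were 1.29 (SE 0.33, adjusted p = 0.00341) and 1.25 (SE 0.34, adjusted p = 0.00543). In ID organoids they were 1.92 for IDE (SE 0.36, adjusted p = 0.000131) and 1.65 for IDM (SE 0.38, adjusted p = 0.0016). This gene was higher in every inhibited library than in any control in all 4 comparisons. Slc7a8 rose in Ei (log2 change 1.04, SE 0.29, adjusted p = 0.00655) and Mi (1.06, SE 0.29, adjusted p = 0.00611), from 17.1, 16.4 and 11.7 CPM to 25.2, 32.5 and 33.2 CPM in Ei and 45.8, 22.04 and 25.8 CPM in Mi. Its adjusted p became 0.0503 without ENR replicate 3 and, for Mi, 0.135 without Mi replicate 1.

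Slc2a2 was called higher in Mi (0.63, adjusted p = 0.0228) but not without ENR replicate 3 (0.154), Mi replicate 1 (0.066) or Mi replicate 3 (0.13). Slc6a19 was called in IDM (0.92, adjusted p = 0.0349) but not without any 1 of ID replicates 1, 2 and 3 and IDM replicates 1 and 3 (0.0532 to 0.163). Slc36a1, a proton-coupled carrier of small amino acids, was called in IDE (0.93, adjusted p = 0.0435) and IDM (0.97, adjusted p = 0.0425), with groups that overlapped. Without ID replicate 3 its log2 changes were 0.55 (adjusted p = 0.346) and 0.58 (adjusted p = 0.326), and it was also lost without ID replicate 2, IDE replicate 1, IDE replicate 3, IDM replicate 2 or IDM replicate 3 (0.0803 to 0.186). Slc2a9 in IDE (1.49, adjusted p = 0.0156) was lost without IDE replicate 3, ID replicate 2 or ID replicate 3 (0.0675 to 0.101), and Slc7a4, an orphan member of the cationic family, in Ei (1.02, adjusted p = 0.0264) without ENR replicate 1 or 2 or Ei replicate 2 or 3 (0.0613 to 0.114). DESeq2 ended the calls of Slc2a2 (0.0554), Slc6a19 (0.0815), Slc36a1 (0.145 in IDE, 0.133 in IDM), Slc2a9 (0.0819) and Slc7a4 (0.08), and with only the groups compared Slc36a1 in IDM was lost too (0.0645). Slc5a1 did not pass in any 6 h comparison, with log2 changes of 0.02 in Ei, 0.24 in Mi, −0.10 in IDE and 0.17 in IDM.

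Other genes of these pathways moved at 6 h as well. Of 12 genes of the amino acid response tested, 4 fell and 1 rose in Ei, 7 fell in Mi, 5 in IDE and 7 in IDM, with median log2 changes of −0.45, −0.79, −0.45 and −0.70. Serine and one-carbon enzymes were among those that fell: Shmt2 (−1.33 in Ei, adjusted p = 3.58e-07), Phgdh (−1.15, adjusted p = 5.15e-06), Mthfd2 (−1.18, adjusted p = 0.000121) and Psat1 (−0.75, adjusted p = 0.00014). Atf4, the transcription factor of this response, was called in Mi (−0.74, adjusted p = 0.000588) and not in Ei (−0.35, adjusted p = 0.0887), a difference that was not tested. Of 9 luminal enzymes 3, 4, 3 and 4 rose in Ei, Mi, IDE and IDM, and Anpep rose in all of them, by 1.61, 2.07, 1.79 and 1.77. The summed enterocyte markers were at 4330–4940 CPM in Ei and 4390–4850 CPM in Mi against 3190–4240 CPM in ENR, and the Paneth sum at 2390–3660 and 2160–2710 CPM against 1380–1860 CPM. Of 8 enterocyte markers tested, 1 rose and none fell in Ei and in Mi alike (median log2 changes −0.03 and −0.01). The part of these shifts in the carrier changes was not tested.

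After 96 h of EGFR inhibition 6 of 29 members were lower than in ENR and none rose, where 8.92% of all genes fell and 9.45% rose. After 96 h of Mek inhibition 5 fell and 3 rose, against 11.8% and 11.5%. Some growth carriers were lower at this time too: of 8 tested, 4 fell in Ei and 4 in Mi, with median log2 changes of −0.53 and −0.79. The changes of the 8 ran from −2.4 to 0.594 in Ei and from −2.65 to 0.193 in Mi. Slc7a5 and Slc7a6, which were called lower at 6 h, were not tested at 96 h. Slc38a1 was at 522, 573 and 492 CPM in ENR, at 89.2, 130.1 and 94.01 CPM in Ei and at 147, 144 and 134 CPM in Mi. Its log2 changes were −2.40 (SE 0.28, adjusted p = 6.95e-08) and −1.90 (SE 0.24, adjusted p = 2.62e-07). Slc7a11 was at 174, 235 and 214 CPM in ENR, at 90.9, 62.0 and 51.7 CPM in Ei and at 48.4, 29.4 and 19.7 CPM in Mi (−1.49, SE 0.25, adjusted p = 3.92e-05, and −2.65, SE 0.24, adjusted p = 3.41e-10). The inhibited libraries did not reach the ENR range for either gene.

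Slc2a1 was at 42.7, 38.7 and 32.3 CPM in ENR, at 5.15, 24.8 and 9.40 CPM in Ei and at 12.1, 4.63 and 3.94 CPM in Mi. The Mi change of −2.38 (SE 0.40, adjusted p = 3.63e-05) kept its call with any 1 library left out, and the Ei change of −1.94 (SE 0.49, adjusted p = 0.005) became −1.27 (adjusted p = 0.176) without Ei replicate 1. Slc1a4 fell by 1.39 in Mi (SE 0.23, adjusted p = 2.59e-05) and by 0.81 in Ei (SE 0.26, adjusted p = 0.0246), the latter lost without ENR replicate 2 or 3 or Ei replicate 1 or 3 (0.0525 to 0.0618). Slc1a5 (0.26, adjusted p = 0.531, and 0.10, adjusted p = 0.805) and Slc7a1 were called in neither.

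Among absorptive members at 96 h, Slc5a1 now went down, from 296, 262 and 261 CPM in ENR to 168, 161 and 136 CPM in Ei and to 145, 195 and 163 CPM in Mi. The log2 changes were −0.80 (SE 0.22, adjusted p = 0.00939) and −0.71 (SE 0.20, adjusted p = 0.009, or 0.0518 without Mi replicate 1). Slc1a1 was at 1.72, 0 and 4.70 CPM in Ei, on 2 counts against 99 in ENR, a ratio of 10.4 with a 95% counting interval from 2.8 to 87.0 (adjusted p = 0.00231, or 0.0665 without Ei replicate 1). The Ei count of 6 calls became 3 without Ei replicate 1, which left 2 libraries of 158135 and 228954 counts. In Mi Slc5a9 rose by 1.33 (SE 0.31, adjusted p = 0.00172), from 11.7 ± 0.88 to 29.8 ± 5.08 CPM (SD, n = 3). Slc7a4 (1.28, adjusted p = 0.0141) was lost without ENR replicate 1 or 3 or Mi replicate 3 (0.0537 to 0.104), and Slc36a1 (1.08, adjusted p = 0.0484) without any ENR replicate or Mi replicate 2 or 3 (0.0834 to 0.157). DESeq2 ended both calls (0.0534 and 0.206), and that of Slc36a1 was lost too without the filter (0.0525) and with DESeq2 size factors (0.0562). Slc15a1, Slc6a19, Slc7a9, Slc2a2 and Slc2a5 passed in neither comparison, and the libraries of Slc15a1 were all at or below 4.98 CPM. The summed Paneth markers stood at 26000–41100 CPM in Ei and 23200–24300 CPM in Mi against 2230–2540 CPM in ENR, and the enterocyte sum at 2230–2500 and 1660–2040 CPM against 2040–2160 CPM. Of 8 enterocyte markers tested, 1 rose and 3 fell in Ei (median log2 change 0.09). In Mi 1 of them rose and 5 fell (median −1.23). The enteroendocrine sum was 2450–3030 CPM in Ei and 1660–2000 CPM in Mi against 268–379 CPM, the goblet sum 3180–4460 and 2130–2730 CPM against 1170–1520 CPM, the tuft sum 112–144 and 77.2–118 CPM against 21.8–31.3 CPM, and the stem sum 1450–1780 and 2340–2540 CPM against 1380–1470 CPM. The part of these shifts was not tested. Anpep rose by 3.29 in Ei (adjusted p = 1.79e-09) and 4.15 in Mi (adjusted p = 8.25e-12) on the log2 scale, while of 13 amino acid response genes 2 rose and 3 fell in Ei and 1 rose and 3 fell in Mi. Among these Psat1 fell by 1.10 (adjusted p = 0.000515) and 1.18 (adjusted p = 0.000126), and the stress gene Chac1 rose by 1.74 (adjusted p = 0.000686) and 1.16 (adjusted p = 0.0082).

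EGFR or Mek inhibition on top of Wnt and Notch inhibition lowered Slc5a1 and Slc15a1 and raised Slc7a8 at 96 h. In IDE against ID 3 of 29 members rose and 5 fell, where 10.8% of all genes rose and 13.1% fell, and in IDM against ID 2 rose and 7 fell, against 5.37% and 8.15%. All of these counts but that of 7 lower members were near the share of all genes. Slc5a1, at 1576, 1471 and 2069 CPM in ID, was at 952, 588 and 528 CPM in IDE and at 631, 513 and 512 CPM in IDM. The log2 changes were −1.31 (SE 0.19, adjusted p = 5.02e-06) and −1.63 (SE 0.20, adjusted p = 3.54e-07). Slc15a1 was at 5.68, 14.9 and 15.4 CPM in IDE and at 4.44, 18.4 and 19.0 CPM in IDM, against 52.05, 65.7 and 92.3 CPM in ID, with changes of −2.50 (SE 0.40, adjusted p = 2.55e-05) and −2.25 (SE 0.47, adjusted p = 0.00119). For both genes the inhibited libraries lay below all ID libraries.

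Other absorptive carriers were higher in the same organoids or did not pass. Slc7a8 was at 21.5, 6.57 and 28.3 CPM in ID, at 73.8, 57.5 and 51.5 CPM in IDE and at 138, 132 and 152 CPM in IDM. It rose by 1.57 (SE 0.37, adjusted p = 0.00203) and by 2.76 (SE 0.36, adjusted p = 1.33e-06) on the log2 scale, and the ranges of the 3 groups did not touch. Slc6a19 was at 70.03, 47.5 and 51.5 CPM in IDE, which did not pass (0.69, SE 0.35, adjusted p = 0.153), and at 93.3, 55.3 and 87.3 CPM in IDM, where it was called (1.16, SE 0.37, adjusted p = 0.033). The IDM call was lost without ID replicate 1 (0.187), ID replicate 2 (0.0737), IDM replicate 1 (0.12) or IDM replicate 3 (0.101). Slc2a2, at 290, 218 and 227 CPM in IDE, was called (0.62, adjusted p = 0.033) but not without ID replicate 1 (0.236), ID replicate 2 (0.107) or IDE replicate 1 (0.154), and in IDM its change was −0.06 (adjusted p = 0.914). Slc5a9 in IDE (0.95, adjusted p = 0.037) was lost without ID replicate 1, 2 or 3 or IDE replicate 1 or 3 (0.0502 to 0.14). DESeq2 ended the calls of Slc6a19 in IDM (0.0608), Slc2a2 (0.0988) and Slc5a9 (0.0865), and dropping the filter ended that of Slc5a9 (0.0646). Slc7a9, Slc7a7 and Slc2a5 did not pass in either comparison.

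Slc38a1 fell furthest, from 675, 542 and 606 CPM in ID to 114, 53.5 and 18.03 CPM in IDE and 111, 76.8 and 83.5 CPM in IDM (log2 changes −3.27, SE 0.27, adjusted p = 1.4e-10, and −2.77, SE 0.28, adjusted p = 1.61e-08). Slc7a11 was at 187, 210 and 164 CPM in ID, at 110, 145 and 160 CPM in IDE and at 79.98, 67.6 and 87.3 CPM in IDM. It passed in IDM (−1.25, SE 0.26, adjusted p = 0.00112) and not in IDE (−0.43, SE 0.22, adjusted p = 0.162), and IDM against IDE did not pass (−0.82, SE 0.26, adjusted p = 0.0665). Slc2a1 was called in IDE (−1.61, adjusted p = 0.00479, or 0.0619 without ID replicate 3 and 0.062 without IDE replicate 2) and in IDM (−1.80, adjusted p = 0.0203, or 0.0831 to 0.149 without ID replicate 3, IDM replicate 2 or IDM replicate 3). Slc6a8 was called lower in IDE (−1.32, adjusted p = 0.00596, or 0.065 without ID replicate 3 and 0.0956 without IDE replicate 2) and in IDM (−1.38, adjusted p = 0.0255, or 0.0706 to 0.176 without ID replicate 3, IDM replicate 1 or IDM replicate 2). Slc1a4 was called in IDM (−1.34, adjusted p = 0.0261, or 0.0677 to 0.14 without ID replicate 3, IDM replicate 1 or IDM replicate 3). Under DESeq2 the IDM calls of Slc2a1 (0.058), Slc6a8 (0.0708) and Slc1a4 (0.0598) were lost, and that of Slc1a4 also with only the groups compared (0.0591). The IDE count of 8 calls became 5 without ID replicate 3, and the IDM count of 9 became 5 under DESeq2.

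The enterocyte marker sum was 11900–16900 CPM in IDE and 9070–10700 CPM in IDM, the goblet sum 9860–14900 and 7000–7680 CPM, and the enteroendocrine sum 5440–7890 and 10700–11700 CPM. In ID these were 12800–18200, 22400–40900 and 2410–4000 CPM. Of 8 enterocyte markers tested, 1 rose and 5 fell in IDE (median log2 change −0.81). In IDM 5 of them fell and none rose (median −1.01). The part of these shifts was not tested. Among luminal enzymes Enpep rose by 2.87 in IDE (adjusted p = 4.26e-09) and 2.98 in IDM (adjusted p = 6.18e-09), and so did lactase Lct, which had 2 counts in ID, by a ratio of 18.8 (95% counting interval 4.95 to 159, adjusted p = 0.000211) and 28.2 (7.22 to 243, adjusted p = 7.43e-05). Pdzk1 fell by 2.28 in IDE (adjusted p = 0.00323), and in IDM it had 1 count, lower by a ratio of 21.6 (3.65 to 877, adjusted p = 0.00233).

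Whether a carrier responded differently with and without Wnt and Notch inhibition was tested as the difference of the changes within each library set. For EGFR inhibition 2 of 29 members had a higher change in ID than in ENR and none a lower one, where 6.28% and 7.84% of all genes did. These were Slc7a11, with a difference of 1.06 (SE 0.33, adjusted p = 0.0295), and Slc1a1, with 3.77 (SE 1.25, adjusted p = 0.0395) on very few counts. Each was lost when single libraries were left out, Slc7a11 in 8 of 12 fits (0.0527 to 0.0709) and Slc1a1 in 9 (0.0513 to 0.147). The count was 2 without ID replicate 2, 5 without IDE replicate 1 and 0 or 1 without any other library. Slc1a1 was also lost under DESeq2 (0.0606). For Mek inhibition 2 members had a higher change and 1 a lower one, against 2.35% and 3.45%. Slc7a8 differed by 2.04 (SE 0.54, adjusted p = 0.0202), lost without ENR replicate 2 (0.0619) or Mi replicate 3 (0.0585), and Slc7a11 by 1.40 (SE 0.37, adjusted p = 0.0179), lost without Mi replicate 3 (0.0674) or IDM replicate 3 (0.0511). Slc5a1 differed by −0.93 (SE 0.28, adjusted p = 0.0419), lost in 10 of 12 fits (0.0532 to 0.164), under DESeq2 (0.052) and with DESeq2 size factors (0.0585). The count of 3 became 0 without Mi replicate 3 and 1 without ENR replicate 2 or IDM replicate 3. For Slc15a1 the difference was not called with either inhibitor (−2.08, SE 1.47, adjusted p = 0.391, and −1.92, SE 1.06, adjusted p = 0.335), with 13 counts in ENR behind it.

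The inhibitors were also compared with each other at 96 h. In Mi against Ei only Slc7a11 was called among 29 members (−1.16, SE 0.30, adjusted p = 0.05 after rounding, under the threshold), where 0.086% of all genes were higher and 0.996% lower. Its call was lost without Ei replicate 1 (0.541), Ei replicate 2 (0.06), Mi replicate 2 (0.171) or Mi replicate 3 (0.279) and with only the groups compared (0.228). In IDM against IDE 3 members were higher and none lower, against 2.13% and 2.57%. These were Slc7a8 (1.20, SE 0.29, adjusted p = 0.0156), Slc7a1 (0.71, SE 0.20, adjusted p = 0.0407) and Slc38a6 (1.00, SE 0.30, adjusted p = 0.0466). Slc7a8 was at 51.5 to 73.8 CPM in IDE and at 132 to 152 CPM in IDM, and its call was lost without IDE replicate 2 or 3 or IDM replicate 2 or 3 (0.0513 to 0.0721). Slc7a1 was lost without any IDE replicate or IDM replicate 1 or 3 (0.0608 to 0.237), and Slc38a6 without IDE replicate 1 or 3 or IDM replicate 2 (0.118 to 0.579). DESeq2 ended the call of Slc38a6 (0.0677), and dropping the filter ended that of Slc7a1 (0.119). The 3 calls became 1 and 0 when IDE replicate 2 and IDE replicate 3 were left out, and 5 without the filter or with only the groups compared.

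**Figure D3:**
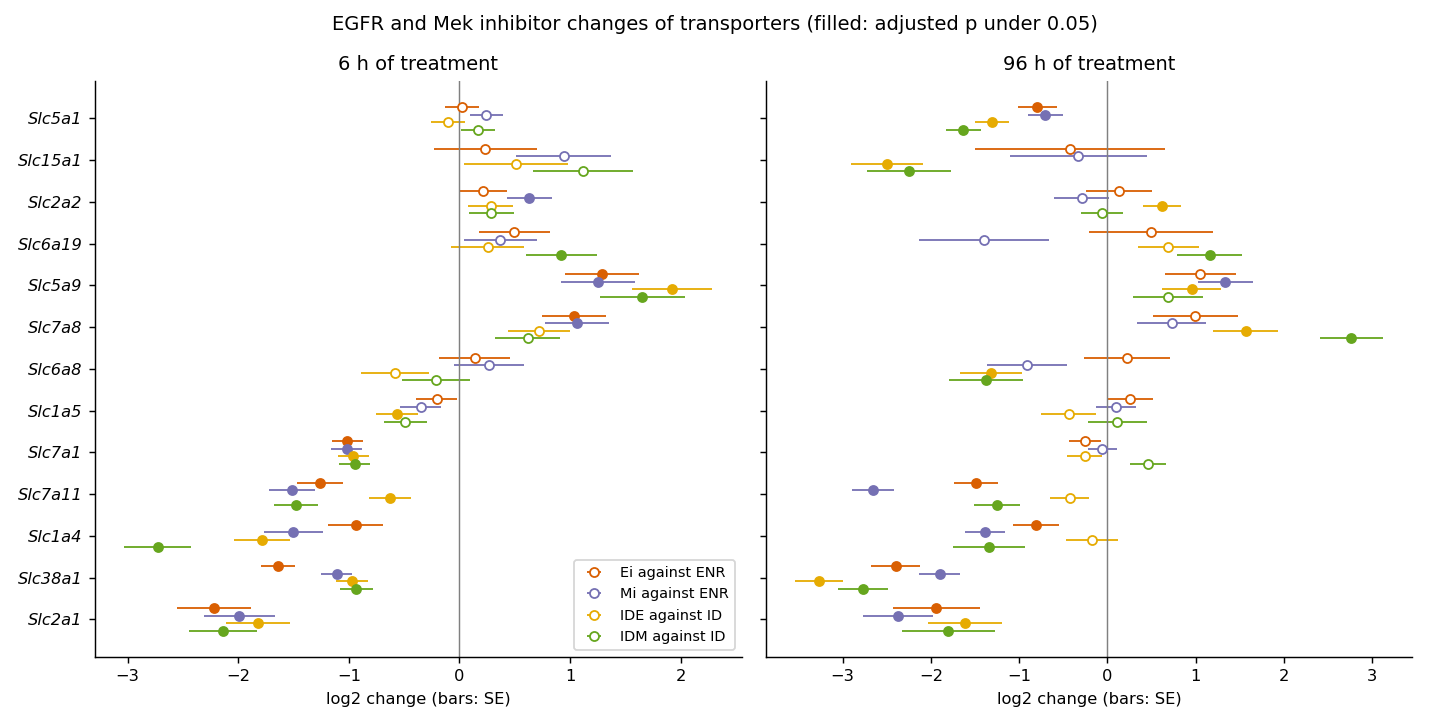
Log2 changes with standard errors for 13 transporters under EGFR inhibition (Ei against ENR, IDE against ID) and Mek inhibition (Mi against ENR, IDM against ID) at 6 h and 96 h; filled points have an adjusted p under 0.05. Slc2a1, Slc38a1 and Slc1a4 lie below 0 throughout, with Slc1a4 not called in IDE at 96 h, Slc5a9 lies above 0, and Slc15a1 and Slc5a1 in ID organoids lie well below 0 at 96 h but not at 6 h.

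Of 6 apical members tested 3 were lower in sorted Lgr5+ cells than in whole organoids, as was 1 of 3 basolateral members, and none was higher. Their stem marker sum was 604–677 CPM in the Lgr5-GFP line and 612–666 CPM in the Lgr5-DTR line against 443–468 CPM in whole organoids, and their enterocyte sum 508–659 CPM against 7360–8310 CPM. In ENR, 7 of 35 members were lower in Lgr5+ cells and none higher, where 6.46% of all genes were lower and 5.54% higher. The count was 4 without Lgr5-GFP replicate 1, 3 without either organoid library and 15 with only the groups compared. Slc5a1 was at 320 and 231 CPM in the organoids and at 117, 61.6, 92 and 68.6 CPM in the Lgr5+ libraries (log2 change −1.71, SE 0.39, adjusted p = 0.00699, or 0.0918 without organoid replicate 1). Slc2a5 was at 47.3 and 31.8 CPM in organoids and at 0.79 to 2.26 CPM in the Lgr5+ libraries (−4.73, SE 0.72, adjusted p = 0.00041). Both sugar carriers were lower in every Lgr5+ library than in either organoid library.

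Slc2a2 had no count in any of the 4 Lgr5+ ENR libraries, against 16.4 and 17.3 CPM in organoids, and was at least 33.1-fold lower against a floor of 3 counts over the group. Its adjusted p was 0.00392, or 0.0561 and 0.0769 without organoid replicate 1 or 2. Slc7a9 was at 30.9 and 41.5 CPM in organoids and 3.02 to 13.5 CPM in Lgr5+ cells (−2.28, SE 0.56, adjusted p = 0.0119, or 0.0575 to 0.177 without Lgr5-GFP replicate 1, Lgr5-DTR replicate 1 or either organoid library). Slc6a8 was at 103 and 92.5 CPM in organoids and at 31.2, 32.6, 35.4 and 19.4 CPM in Lgr5+ cells (−1.74, SE 0.31, adjusted p = 0.00131). The proline transporter Slc6a7 (−2.32, adjusted p = 0.0218) was lost without any library but Lgr5-DTR replicate 1 (0.0784 to 0.285). The inositol carrier Slc5a11 had 1 count in Lgr5+ cells and 59 in organoids, a ratio of 44.7 with an interval from 7.71 to 1790, and was lost without any of the 6 libraries (adjusted p 0.0333, then 0.0984 to 0.221) and under DESeq2 (0.0755).

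Of 9 growth supply members none was called in Lgr5+ cells. Slc38a1 was at 50.5 and 48.8 CPM in organoids and at 113, 92.04, 65.3 and 69.5 CPM in Lgr5+ cells, which did not pass (0.74, SE 0.31, adjusted p = 0.135). Slc2a1 was at 66.4 and 102 CPM in organoids and at 41.2, 49.6, 25.2 and 44.7 CPM in Lgr5+ cells (−1.07, SE 0.37, adjusted p = 0.075, or 0.0106 with only the groups compared). The luminal enzymes were lower for 7 of 9 tested. Sis was lower by a log2 change of −4.78 (adjusted p = 6.28e-05). Slc15a1 was too low for a test in the sorted set: it had 39 counts in the 2 organoid libraries, at 8.09 and 1.62 CPM, and none in the 12 sorted libraries.

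Sorted Dclk1+ cells had higher levels of some carriers, among them the glycine transporter Slc6a9, and lower levels of others. The tuft marker sum was 2970–3160 CPM in Dclk1+ ENR libraries, 9.56–11.3 CPM in organoids and 19.1–66.8 CPM in Lgr5+ ENR libraries, with 1 of the 6 markers, Gnat3, at 0 in every library of the set. Of 5 immune and stromal markers only Ptprc had counts in Dclk1+ ENR cells, at 83.2 and 25.7 CPM, and Cd74, Col1a1, Vim and Pecam1 were at 0. Against organoids 6 of 35 members were higher and 11 lower, where 13.2% of all genes were higher and 17.1% lower. Against Lgr5+ cells 9 were higher and 5 lower, where 18.9% and 19.4% were in each direction. All of these counts but that of 11 lower members were near the share of all genes. Both comparisons use the same 2 Dclk1+ libraries. The 17 calls against organoids became 8 without organoid replicate 1, 7 without organoid replicate 2, 13 without Dclk1+ replicate 2 and 8 with only the groups compared. The 14 calls against Lgr5+ cells became 10 without Dclk1+ replicate 2 and 9 with only the groups compared. That fit ended the calls against organoids of Slc1a4, Slc1a5, Slc38a1, Slc38a10, Slc38a7, Slc38a9, Slc6a6, Slc6a7, Slc7a5 and Slc7a8 (0.0511 to 0.107) and those against Lgr5+ cells of Slc7a1 (0.0646) and Slc7a4 (0.0684).

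Slc6a9 was at 352 and 175 CPM in Dclk1+ cells, at 26.7 and 64.5 CPM in organoids and at 27.5 to 59.5 CPM in the 4 Lgr5+ libraries. Both Dclk1+ libraries were above all the others in ENR, with log2 changes of 2.52 against organoids (SE 0.43, adjusted p = 0.000302) and 2.68 against Lgr5+ cells (SE 0.35, adjusted p = 1.58e-05). The gene overlaps Ccdc24 and B4galt2. The taurine transporter Slc6a6 was at 187 and 206 CPM in Dclk1+ cells, 95.6 and 101 CPM in organoids and 57.8 to 80.2 CPM in Lgr5+ cells. It differed from Lgr5+ cells by 1.60 (SE 0.31, adjusted p = 0.000599) and from organoids by 1.00 (SE 0.36, adjusted p = 0.0433), the latter lost without any 1 of the 4 libraries (0.0625 to 0.194) and without the filter (0.0652). Slc6a8 was at 95.5 and 131 CPM, above the Lgr5+ cells (1.95, SE 0.32, adjusted p = 0.000158) and not called against organoids, at 103 and 92.5 CPM. Slc38a6 was at 38.8 ± 1.03 (SD, n = 2) against 11.2 ± 3.57 CPM (SD, n = 4; 1.80, SE 0.42, adjusted p = 0.00293).

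Slc38a1 was at 94.1 and 142 CPM in Dclk1+ cells, above organoids (1.26, SE 0.35, adjusted p = 0.0116, or 0.0773 to 0.0989 without Dclk1+ replicate 2 or either organoid library). Slc7a5 was at 53.2 and 25.7 CPM, above organoids at 9.07 and 13.5 CPM (1.78, adjusted p = 0.0446, or 0.119 to 0.244 without Dclk1+ replicate 1 or either organoid library). Slc2a10, a GLUT family member, had 27 counts in Dclk1+ cells, at 13.6 and 14.1 CPM, and 2 in organoids, a ratio of 54.2 with an interval from 13.6 to 470 (adjusted p = 0.0105, or 0.133 without organoid replicate 2). Against Lgr5+ cells its adjusted p of 0.0228 became 0.054 to 0.113 without Dclk1+ replicate 1 or 2, Lgr5-GFP replicate 1 or Lgr5-DTR replicate 2.

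Several calls rested on Dclk1+ replicate 2, the library with more secretory markers. The peptide carrier Slc15a2 (PEPT2) was at 4.09 and 19.1 CPM in Dclk1+ cells with no count in Lgr5+ cells, at least 26.3-fold higher, and its adjusted p of 0.00671 became 0.11 without that library and 0.296 under DESeq2. Slc38a9, a lysosomal amino acid sensor, was at 19.1 and 69.6 CPM, and its log2 changes of 2.22 against organoids (adjusted p = 0.0172) and 2.26 against Lgr5+ cells (adjusted p = 0.00426) became 0.95 (0.353) and 1.00 (0.282). The organoid comparison of Slc38a9 was also lost without organoid replicate 1 (0.104) or 2 (0.118). Slc5a11 was at 0 and 20.7 CPM and overlapped the Lgr5+ libraries, which held 1 count. Its ratio of 75.9 (interval 12.4 to 3120, adjusted p = 0.00825) turned to a log2 change of −1.40 (adjusted p = 1) without that library. Slc7a4 against Lgr5+ cells (1.16, adjusted p = 0.0385) was lost instead without Dclk1+ replicate 1, Lgr5-GFP replicate 1, or Lgr5-DTR replicate 1 or 2 (0.0576 to 0.329).

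Of 6 apical members 3 were lower in Dclk1+ cells than in organoids and 1 was lower than in Lgr5+ cells. Of 3 basolateral members 2 and 0 were. Of all genes, 17.1% were lower in Dclk1+ cells than in organoids and 19.4% lower than in Lgr5+ cells. Slc5a1 was at 35.5 and 13.2 CPM, below organoids (log2 change −3.56, SE 0.55, adjusted p = 0.000128) and below Lgr5+ cells (−1.85, SE 0.50, adjusted p = 0.00749, or 0.0894 without Dclk1+ replicate 2). Slc2a5 had no count in Dclk1+ cells and was at least 25.8-fold lower than in organoids (adjusted p = 0.000448). Slc2a2 also had none and was at least 10.9-fold lower (adjusted p = 0.0165, or 0.0671 to 0.123 without Dclk1+ replicate 2 or either organoid library and 0.418 under DESeq2). Slc7a9 was at 1.36 and 4.97 CPM (−3.37, SE 0.80, adjusted p = 0.00435) and Slc7a8 at 0 and 3.31 CPM against 16.2 and 17.8 CPM in organoids (−3.08, SE 0.88, adjusted p = 0.0139, or 0.0599 without organoid replicate 2).

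Of 9 growth supply members 3 were higher in Dclk1+ cells than in organoids (Slc6a9, Slc38a1 and Slc7a5, above) and 2 were lower. Of all genes, 13.2% were higher and 17.1% lower in that comparison. Against Lgr5+ cells 1 member was higher (Slc6a9) and 3 were lower, where 18.9% of all genes were higher and 19.4% lower. Slc1a4 was at 25.9 and 6.63 CPM in Dclk1+ cells, 80.9 and 78.2 CPM in organoids and 41.1 to 66.8 CPM in Lgr5+ cells (−2.37, SE 0.56, adjusted p = 0.00404, and −1.90, SE 0.52, adjusted p = 0.0081, the latter 0.0896 without Dclk1+ replicate 2). Slc1a5 was lower than in organoids (−1.76, adjusted p = 0.00384, or 0.0609 without organoid replicate 1) and than in Lgr5+ cells (−1.12, adjusted p = 0.0253, or 0.061 to 0.155 without Dclk1+ replicate 1, Lgr5-GFP replicate 2 or Lgr5-DTR replicate 1). Slc7a1 was lower than in Lgr5+ cells (−0.91, adjusted p = 0.0267, or 0.0512 to 0.136 without Dclk1+ replicate 1 or any 1 of the Lgr5+ libraries and 0.0719 without the filter). Among members in no role list, Slc38a10 (−1.37, adjusted p = 0.00834, or 0.0553 without organoid replicate 1), Slc38a7 (−2.16, adjusted p = 0.0498, or 0.056 to 0.319 without any 1 of the 4 libraries, 0.0672 under DESeq2 and 0.0582 with its size factors) and Slc6a7 (−2.63, adjusted p = 0.0277, or 0.0833 to 0.169 without Dclk1+ replicate 2 or either organoid library) were lower than in organoids. The serotonin transporter Slc6a4 had no count in Dclk1+ cells and was at 10.05 and 8.90 CPM in organoids. It was called lower in both comparisons and is named here because it completes the counts, although its mean was below the 10 CPM set for naming. Both of its calls were lost in at least 1 fit that left out a library.

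**Figure D4:**
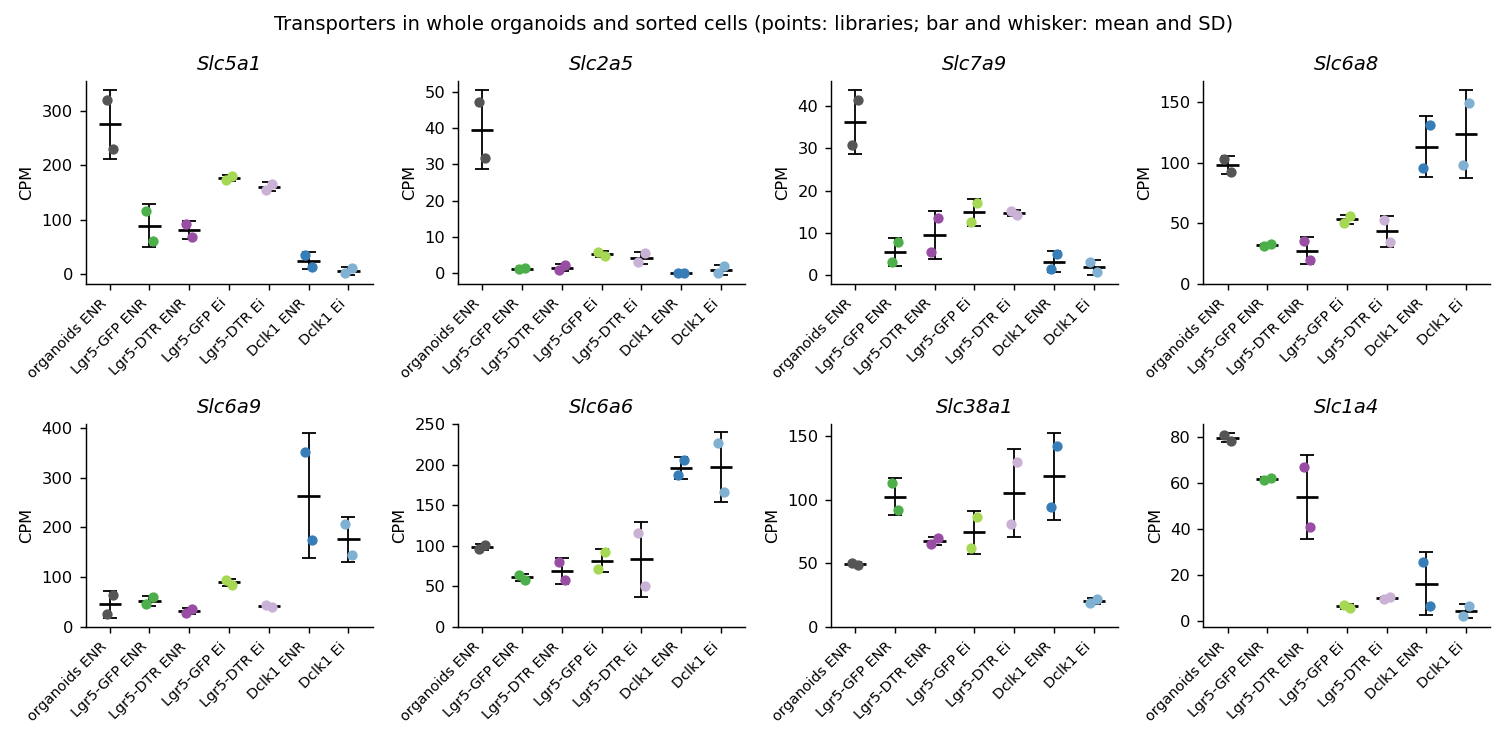
Levels of 8 transporters in the sorted set, in CPM on an axis scaled for each gene; points are single libraries and bars and whiskers the group mean and SD (n = 2 each) for whole organoids, Lgr5+ cells of both lines and Dclk1+ cells, with and without EGF inhibition. Slc5a1, Slc2a5 and Slc7a9 are highest in whole organoids, and Slc6a9 and Slc6a6 are highest in Dclk1+ cells.

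Under EGF inhibition Slc1a4 and Slc2a1 fell in the sorted Lgr5+ cells and Slc38a1 in the Dclk1+ cells. In Lgr5+ cells 2 of 35 members fell and none rose, where 2.06% of all genes fell and 2.88% rose; the count of 2 became 5 without the filter and 7 with only the groups compared. Slc1a4 was at 61.4, 62.3, 66.8 and 41.1 CPM in ENR and at 7.26, 5.69, 9.65 and 10.4 CPM under inhibition, with no overlap (log2 change −2.82, SE 0.41, adjusted p = 0.000494). Slc2a1 was at 41.2, 49.6, 25.2 and 44.7 CPM in ENR and at 7.92, 18.9, 9.14 and 7.63 CPM under inhibition (−1.93, SE 0.36, adjusted p = 0.00361). Both calls held with any 1 library left out. Slc5a1 was higher in all 4 inhibited libraries, at 173, 180, 155 and 166 CPM against 117, 61.6, 92 and 68.6 CPM, but did not pass (1.00, SE 0.34, adjusted p = 0.102), nor did Slc7a8 (1.55, SE 0.52, adjusted p = 0.102). With only the groups compared both passed (0.00158 and 0.0113), and Slc5a1 also without the filter (0.00725). Slc38a1, which fell in whole organoids, did not pass in Lgr5+ cells (0.09, SE 0.25, adjusted p = 0.905). Whether the organoid and sorted responses differ was not tested, since the sets were fitted apart. The responses of Lgr5+ and Dclk1+ cells were not compared with each other by a test either. The enterocyte sum of Lgr5+ cells was 1360–1640 CPM under inhibition against 508–659 CPM, and Sis rose by 3.39 (adjusted p = 0.00144). The stem sum was 976–1230 CPM against 604–677 CPM, the goblet sum 128–283 CPM against 400–646 CPM and the tuft sum 58.7–185 CPM against 19.1–66.8 CPM, with 4 of 5 tuft markers tested called higher. The part of these shifts was not tested.

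In Dclk1+ cells 1 member rose and 1 fell under EGF inhibition, where 1.1% and 2.24% of all genes did; these 2 calls became 0 with only the groups compared (Slc38a1 0.117, Slc38a10 0.31), and the count was 5 without the filter. Slc38a1 was at 94.1 and 142 CPM in ENR and at 18.9 and 22.2 CPM under inhibition (−2.53, SE 0.38, adjusted p = 0.00142). Slc38a10 was at 38.7 ± 3.17 CPM in ENR and 123 ± 45.2 CPM under inhibition (SD, n = 2; 1.67, SE 0.36, adjusted p = 0.0187, or 0.0518 without ENR replicate 2 and 0.0912 without inhibited replicate 1). Slc2a1 was at 75.0 and 39.8 CPM in ENR and at 61.1 and 54.3 CPM under inhibition (0.03, SE 0.46, adjusted p = 0.996). The goblet sum of Dclk1+ cells was 71.6–124 CPM under inhibition against 119–849 CPM in ENR, and the Paneth sum 110–612 against 180–2330 CPM. The enterocyte sum was 503–721 against 651–764 CPM, the stem sum 338–406 against 231–239 CPM and the tuft sum 4140–4530 against 2970–3160 CPM. The part of these shifts was not tested. The response of Lgr5+ cells was also compared between the Lgr5-DTR and Lgr5-GFP lines. No gene was called by edgeR, so 0.0% in each direction, with 262 of all genes and 1 member at an unadjusted p under 0.05.

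Over all 20 comparisons, 36 of the 39 members tested were called at least once, beside 73.7% of all genes tested. The 3 that never were are Slc2a8, an intracellular glucose carrier, Slc38a2, and Slc5a6, the sodium-coupled vitamin carrier. At 6 h 19 of 32 members were called in at least 1 of 5 comparisons, beside 40.8% of all genes. At 96 h 23 of 29 were called in at least 1 of 9, beside 60.8%, and in the sorted set 24 of 35 in at least 1 of 6, beside 49.3%. Among the 37 members too low to test, the highest group mean belonged to the glutamate transporter Slc1a2 in IDM at 96 h, with libraries at 17.8, 61.4 and 15.2 CPM against 0, 0.70 and 1.15 CPM in ENR.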

How the data were processed

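The 50 bulk CEL-seq libraries were used as the raw read counts per gene that the authors deposited, 18 from 6 h, 18 from 96 h and 14 from sorted cells. Reads were aligned with BWA 0.6.2-r126, and the build named is mm10, per the submitters' processing notes; the counting step is not given in the sources used here. A gene that a file did not list was entered as 0, and no row was without a gene name. Groups and replicate numbers came from the sample titles. The single-cell libraries were not used here.

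The members and lists were chosen with earlier results of these data known. Each set was fitted apart with all its groups in edgeR 4.0.16 (R 4.3.3): low counts were set aside with filterByExpr, libraries scaled by TMM and groups compared by the quasi-likelihood test, with Benjamini-Hochberg adjustment over all genes tested (9380, 8135 and 10325 genes). Standard errors were the log2 change divided by the square root of F. CPM used the TMM-scaled totals. The code was tested on simulated data. Members are named where called in a set, if the higher group averages 10 CPM or more, and 10 fixed members wherever tested; from other lists up to 4 genes with the smallest adjusted p are named. Where a group held 0 counts, folds are bounds against a floor of 3 counts over the group, and where it held 1 to 3, ratios carry a 95% interval; both cover counting error only, since reads were counted without stated molecular identifiers. Alternatives were DESeq2 1.42.0, its size factors, no filter, only the groups compared, the replicate number as a block and leaving out each library. Correlations of log2 CPM between replicates ran from 0.79 to 0.98. Same-numbered libraries of different groups did not deviate together (median correlations of 0.0003061, 0.005277 and 0.01557), so the numbers were not taken as pairs. Some results are not reported here.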

Additional observations from a re-analysis of the deposited data

Results flagged for a closer look

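Of the differences between contexts that were tested, 5 member results passed. For EGFR inhibition 2 of 29 members were higher and 0 lower, beside 6.28% and 7.84% of all genes. For Mek inhibition 2 were higher and 1 lower, beside 2.35% and 3.45%. The change under EGFR inhibition at 96 h was higher in Wnt- and Notch-inhibited organoids than in ENR by 3.77 for Slc1a1, which had 2 counts in Ei and 4 in ID, and by 1.06 for Slc7a11, on the log2 scale. Under Mek inhibition the difference was 1.40 for Slc7a11, 2.04 for Slc7a8 and −0.93 for Slc5a1. All 5 were lost when at least 1 single library was left out.

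In 3 cases among the named members, the inhibited libraries lay all above their controls in one context and all below them in the other. These differences were not tested. The share of all genes that meet this rule was not computed, so the count of 3 is not read as a trait of the members. Slc5a1 under Mek inhibition in ENR had a log2 change of 0.24 at 6 h, which was not called, and of −0.71 at 96 h. Slc15a1 in IDM against ID had one of 1.12 at 6 h, which was not called, and of −2.25 at 96 h. Slc5a1 under EGF inhibition had one of 1.00 in sorted Lgr5+ cells and of −1.98 in sorted Dclk1+ cells, and neither was called (in Dclk1+ cells DESeq2 and the fit without the filter did call it, with adjusted p of 0.0206 and 0.00545). The cause of none of these differences was tested.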

How the results depend on the processing

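Numbers of called members are given first as reported, then under the alternative. Without the filter on low counts they went from 0 to 1 (ID against ENR, 6 h), 3 to 5 (IDM against IDE), 2 to 5 (Lgr5+ cells, EGF inhibition) and 2 to 5 (Dclk1+ cells, EGF inhibition). DESeq2 gave 7 in place of 11 (Mi against ENR, 6 h), 5 in place of 9 (IDM against ID, 96 h) and 1 in place of 2 (EGFR inhibition, ID minus ENR). A fit to only the groups compared gave 0 in place of 1 (Mi against Ei), 5 in place of 3 (IDM against IDE), 7 in place of 2 (Lgr5+ cells, EGF inhibition), 0 in place of 2 (Dclk1+ cells, EGF inhibition), 15 in place of 7 (Lgr5+ cells against organoids), 8 in place of 17 (Dclk1+ cells against organoids) and 9 in place of 14 (Dclk1+ against Lgr5+ cells). With the replicate number as a block, the count was 0 in place of 1 (Mi against Ei) and 1 in place of 2 (EGFR inhibition, ID minus ENR); it ended 6 calls of named members (adjusted p 0.0593 for Slc7a6 in Ei at 6 h, 0.0518 for Slc2a9 and 0.0552 for Slc5a9 in ID at 96 h, 0.0604 for Slc7a11 in Mi against Ei, 0.0593 for Slc1a1 in the EGFR difference, 0.0573 for Slc7a5 in Dclk1+ cells against organoids), and the numbers were not taken as pairs.

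With 1 library left out, calls ranged from 6 to 12 (Mi against ENR, 6 h), 6 to 10 (IDE against ID, 6 h), 3 to 6 (Ei against ENR, 96 h), 5 to 7 (IDE against ID, 96 h), 0 to 1 (Mi against Ei), 0 to 3 (IDM against IDE), 0 to 5 and 0 to 3 (EGFR and Mek inhibition, ID minus ENR), 3 to 5 (Lgr5+ cells against organoids) and 7 to 14 (Dclk1+ cells against organoids). The change of Slc5a11 between Dclk1+ and Lgr5+ cells ran from −1.40 without Dclk1+ replicate 2 to 7.32, the only reversal. A sorted group cut to 1 library took its spread from the remaining groups of the fit. The cause of these shifts was not tested. For single named members, the leave-one-out fits gave 1477 results on the same side of the threshold, 225 no longer called and 17 newly called. DESeq2 ended 31 calls, added 1 and left 219 results on the same side, a fit to only the groups compared ended 18, added 6 and left 212, and no filter ended 8, added 5 and left 256. DESeq2 size factors in place of TMM left 266 on the same side and 3 no longer called, and moved the median of all genes by at most 0.0868. Depth limits members near 6.197 CPM in the Ei group at 96 h, where 1 library holds 1 count at that level.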

Other observations

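The cystine importer Slc7a11 was at 90.2 to 181 CPM in the 6 h ENR organoids and at 174 to 235 CPM in the 96 h ENR organoids, while the whole organoids of the sorted set, also in ENR, held 2.70 and 5.39 CPM. The sets were normalized apart, so these levels were not compared by a test. In the sorted set Slc7a11 was too low to be tested, with levels of 0 to 4.25 CPM in the Lgr5+ ENR libraries and 0 in all Dclk1+ libraries.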
